A study of Mus musculus with 3 samples.

Results

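The 9 genes described here act late in meiotic recombination, where some double-strand breaks are designated as crossovers and the joined DNA is then cut and resolved. They were taken by name, as Msh4, Msh5, Mlh3, Rnf212, Ccnb1ip1, Hfm1, Cntd1, Exo1 and Pms2, with no threshold on a measured value. All 9 were found by symbol among the 21755 protein-coding genes that GENCODE vM21 places on chromosomes 1 to 19 and X of the mouse build mm10. H3K4me3 was measured by ChIP-seq in testes of adult (C57BL/6J x CAST/EiJ)F1 males with the Prdm9 genotype Humanized/CAST, so that an allele of CAST stands beside mouse Prdm9 with the zinc-finger array of human PRDM9 B. There were 2 ChIP libraries and 1 input library of this single condition, so the comparisons are between genes and with the input, not between treatments. The paper describes littermates with a testis from each, but the labels describe the testes of a lone male, so the spread between replicates may be technical.

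Crossover designation begins when MSH4 and MSH5 clamp onto paired recombination intermediates, with the helicase HFM1 acting on the same structures. The RING-finger proteins RNF212 and CCNB1IP1 (also called HEI10) and the cyclin-like CNTD1 then narrow many such sites to a few, and the endonuclease MLH3 works with EXO1 at those that become crossovers. PMS2 belongs to the same MutL family and is best known from mismatch repair. H3K4me3 is laid down at active gene starts, and PRDM9 adds it at recombination hotspots, so that in testis the same mark sits both on the promoters of these genes and on the sites where their products later act.

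A narrow peak is a point of enrichment with a centre, and a start peak here is a narrow peak centred within 1 kb of any annotated transcript start of the gene. Every library's value is the number of fragments over the centre, not scaled for depth, and of paired ChIP values replicate 1 stands first. Over all 101978 narrow peaks replicate 1 had 17621116 fragments in sum and a median of 26, replicate 2 had 19094837 and 31, and the input had 1250138 and 8. These sums cover narrow peak centres alone and are not the depth of the libraries. Enrichment is the authors' ratio over local background from both replicates together, where 0 means none. A peak counts as PRDM9-independent where its centre lies in a region that the authors marked so, and otherwise as PRDM9-dependent. There were 36243 such regions. As a check of the tissue, 11 of 12 germ cell markers had a start peak, the exception being Acrv1. The median enrichment was 48.6 (15.6 to 74.98) in markers of spermatogonia and early germ cells, 80.2 (43.6 to 113) in those of spermatocytes and 14.6 (9.43 to 43.4) in those of spermatids. Markers of Sertoli, Leydig, myoid, vessel and macrophage cells had one in 10 of 12 cases, with enrichments of 3.005 to 17.5, and Hsd3b1 and Myh11 had none. The germ cell markers Tnp1, Prm1 and Stra8 lay inside this somatic range. Acrv1 and Myh11 lacked a narrow centre near a start, but a wider stretch of enrichment (a broad peak) covered a start of each. It measured 7600 bp at Acrv1 and 4500 bp at Myh11, so these starts were not without the mark. Of 6 markers of other tissues Gfap alone had a start peak, at an enrichment of 1.46. Start peaks thus stood at markers of both germ cells and somatic cells, as they did at 77.4% of protein-coding genes. Which cells of the testis carried each mark was not measured, and fewer marked cells and less mark per cell cannot be told apart.

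All 9 crossover genes carried a start peak, where 77.4% of protein-coding genes did, and all 9 had a broad peak over a start, where 76.5% did. The highest start peak of each was PRDM9-independent in 9 of 9, as it was in 91.8% of genes with a start peak. The authors' p was written as 0, the smallest the table holds, at all 9. With such high shares among all genes, these counts do not set the crossover genes apart. At the highest start peak replicate 1 ran from 408 to 1374 fragments around a median of 819, replicate 2 from 513 to 1310 around 872, and the input from 6 to 33 around 21. Over all genes with a start peak the medians were 695, 762 and 19. No ChIP value of any member came near its input value. Peaks were called where ChIP exceeded the background, so this adds no support of its own. The median enrichment was 56.6 (23.5 to 72.1), against 37.6 over all genes, whose quartiles were 14.7 and 65.3. Of the 9 genes 6 lay above the median of all genes and 3 below it, and Ccnb1ip1 alone lay above the upper quartile. On the log2 scale, with 1 fragment added, the median ratio of ChIP to input was 5.84 (4.61 to 6.04), against 5.22 for all genes. Scaled to the same summed coverage in every library, the median of the members was 1.98, and no scaled value of all genes was set beside it.

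**Figure D1:**
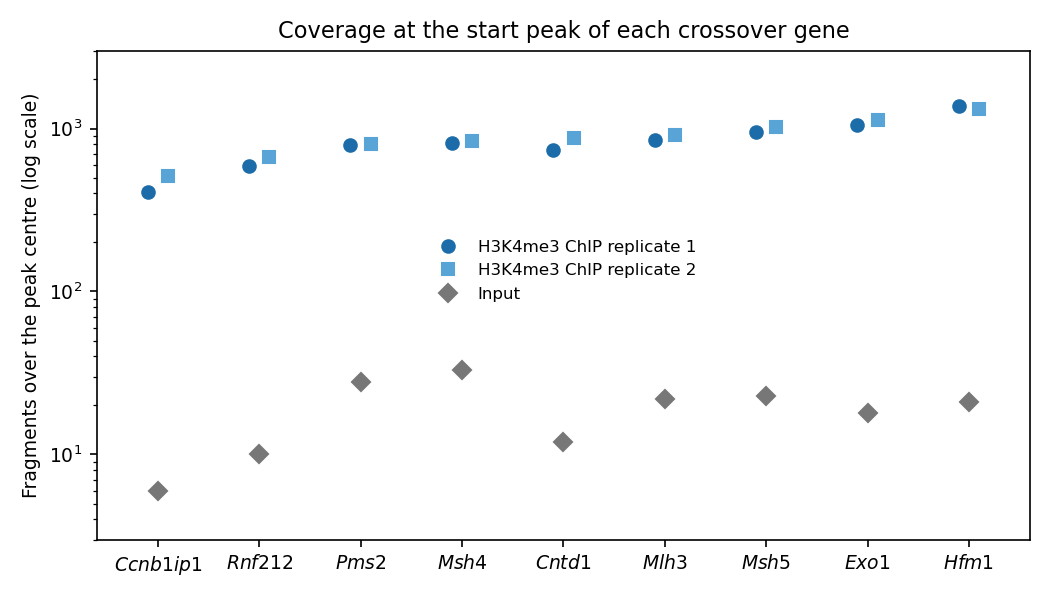
Fragments over the centre of the highest start peak of each of the 9 genes on a log axis, with circles for ChIP replicate 1, squares for replicate 2 and diamonds for the input. The ChIP points lie between 408 and 1374 and the input points between 6 and 33, with Ccnb1ip1 lowest and Hfm1 highest by ChIP.

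By mean ChIP fragments the order from low to high was Ccnb1ip1, Rnf212, Pms2, Cntd1, Msh4, Mlh3, Msh5, Exo1 and Hfm1. Of the 8 neighbouring pairs in this order 2 overlapped between replicates, Pms2 with Cntd1 and Cntd1 with Msh4, and the other 6 did not. The order by enrichment was different, and the input values differed between the genes too. Msh4 was lowest there, followed by Pms2, and Ccnb1ip1 was highest. Intervals of the ratio of mean ChIP to input (95%, exact binomial, counting error only) kept 3 of 36 pairs of genes apart, Msh4 from each of Hfm1, Cntd1 and Exo1. For the remaining pairs the intervals overlapped. Overlap of separate intervals does not show that 2 ratios are equal, and no test of their difference was made. Replicate 2 had more fragments than replicate 1 in 8 of 9 genes, the exception being Hfm1. Replicate 1 gave 48.0% of the ChIP fragments over all narrow peaks. The exact interval of its share held that value at 7 of 9 highest start peaks and missed it at Ccnb1ip1, with 44.3% (41.1 to 47.6), and at Hfm1, with 51.2% (49.3 to 53.1).

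**Figure D2:**
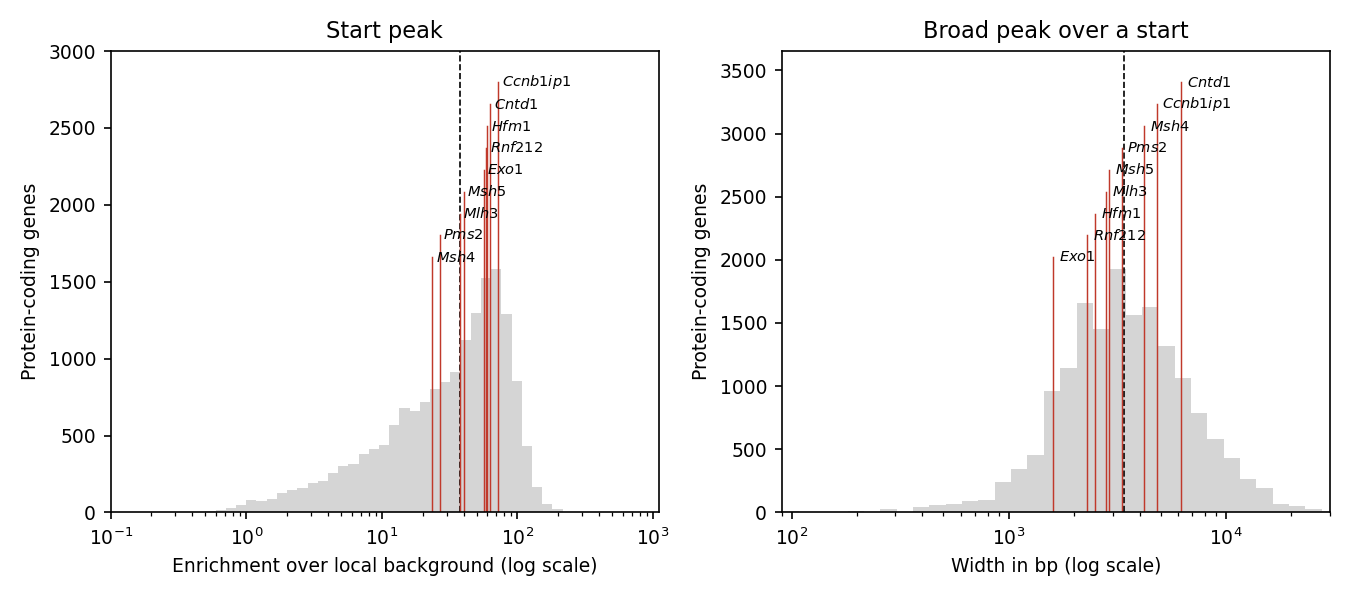
Histograms over all protein-coding genes of the enrichment of the highest start peak (left) and of the width of the widest broad peak over a start (right), both on log axes, with red lines for the 9 genes and a dashed line for the median of all genes. Enrichments of the 9 genes run from 23.5 to 72.1 around a median of 37.6 for all genes, and their widths from 1600 to 6200 bp around 3400 bp.

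Broad peaks are merged bins of 100 bp, and their width says how far the mark spreads around a start. The widest broad peak over a start measured 2900 bp in the median crossover gene (1600 to 6200), against 3400 bp in all genes, whose quartiles were 2200 and 5300 bp. Those of Msh4, Ccnb1ip1 and Cntd1 were wider than the median of all genes and the other 6 were narrower. That of Msh4 lay at an inner start of non-coding transcripts, and the broad peak at its main start measured 2400 bp. Those of Ccnb1ip1 and Cntd1 also covered starts of neighbouring genes. The 9 genes have 57 distinct annotated starts, of which 38 lay inside a broad peak and 19 outside every broad peak. Over all genes 62.1% of starts lay inside one. Starts of protein-coding transcripts were inside in 22 of 30 cases, and starts of other transcripts alone in 16 of 27. Shares by transcript type over all genes were not counted, so this split is not read as a trait of the 9 genes. Only some of the annotated starts thus lay in marked chromatin.

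Msh4 and Msh5 encode the partners of the MutSγ clamp, which holds recombination intermediates and does not repair mismatches. Msh4 (chr3:153857149-153906138, minus strand) had the weakest enrichment of the 9. Its highest start peak, centred at chr3:153905731, had 819 and 835 fragments in the replicates and 33 in the input, with an enrichment of 23.5. This is the highest input value among the 9 genes, while its ChIP mean of 827 ± 11.3 (SD, n = 2) lay in the middle of them. The centre fell 407 bp downstream of the outermost start, of Msh4-201, in a coding exon, within a broad peak of 2400 bp that also covers the starts of the protein-coding transcripts Msh4-203 and Msh4-205. RefSeq places the start of Msh4 at chr3:153904891, which is the start of Msh4-205, so the peak centre lay 840 bp upstream of it and outside the RefSeq promoter window. That window, 250 bases before and 50 after the start (chr3:153904842-153905141, GRCm38.p6, which is mm10, minus strand), is shown because it had the lowest CpG content of the member promoters and none of the motifs searched. It holds 6 CpG, an observed to expected ratio of 0.44, and has no capitals, since no motif matched.
Msh4 promoter: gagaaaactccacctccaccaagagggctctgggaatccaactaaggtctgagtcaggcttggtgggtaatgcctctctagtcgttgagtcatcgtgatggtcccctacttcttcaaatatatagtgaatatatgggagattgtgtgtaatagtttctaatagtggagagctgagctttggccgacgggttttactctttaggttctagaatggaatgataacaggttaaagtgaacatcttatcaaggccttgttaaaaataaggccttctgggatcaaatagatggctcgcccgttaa

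A second start peak of Msh4, PRDM9-independent and centred at chr3:153864945, lay 129 bp inside the start of the non-coding transcript Msh4-206. It had 98 and 115 fragments by ChIP and 8 by input, with an enrichment of 12.4. Its broad peak of 4200 bp was wider than the one at the main start, and the snoRNA gene Gm24395 starts 138 bp from the centre on the opposite strand, so the mark there cannot be given to either transcript alone. Between these peaks, in an intron at chr3:153896117, a PRDM9-dependent peak had 13 and 5 ChIP fragments against 6 of input, with an enrichment of 1.28. The replicates fell on either side of the input, which no other PRDM9-dependent peak of the 9 genes did.

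Msh5 (chr17:35028605-35046745, minus strand) has 11 distinct starts, 8 of them inside a broad peak. Its highest start peak at chr17:35046410 had 954, 1024 and 23 fragments in replicate 1, replicate 2 and the input, an enrichment of 40.4, just above the median of all genes. It lay in an untranslated exon, in a broad peak of 2900 bp over the cluster of starts around Msh5-201. Both replicates were above those of its partner Msh4, but the intervals of the ratio of mean ChIP to input overlapped, at 43.0 (28.6 to 68.0) for Msh5 and 25.1 (17.8 to 36.5) for Msh4. A much weaker, PRDM9-dependent peak at chr17:35044066 sat in a coding exon, 299 bp upstream of the start of the retained-intron transcript Msh5-207. It had 18, 17 and 6 fragments, an enrichment of 2.61, in a broad peak of 900 bp, and Msh5 had no peak in the rest of its body.

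Hfm1, the mammalian counterpart of the yeast helicase Mer3 (gene at chr5:106840192-106926321, minus strand), had the most ChIP fragments of the 9 genes. At chr5:106926054 there were 1374 and 1310 fragments in the replicates and 21 in the input, with an enrichment of 60.0 and a broad peak of 2500 bp. The replicates differed by less than their distance to those of any other member, and 70.2% of genes with a start peak had a lower enrichment. The centre lay 164 bp upstream of the start shared by Hfm1-201 and Hfm1-205, and 4 of its 6 starts shared the broad peak, while those of Hfm1-204 and Hfm1-206 inside the gene had none. Its RefSeq promoter (chr5:106925841-106926140, minus strand) is shown because it had the most CpG among the members, 41, with a GC content of 75.3%. Capitals in it and in the promoters that follow mark matches to the motifs spelled out after them. A match to the NRF1 letters GCATGCGC on each strand overlaps the other just before the start. The stretch that they cover together, GCGCATGCGC, is its own reverse complement. STRA8 matches lie 66 and 6 bases before the start.
Hfm1 promoter: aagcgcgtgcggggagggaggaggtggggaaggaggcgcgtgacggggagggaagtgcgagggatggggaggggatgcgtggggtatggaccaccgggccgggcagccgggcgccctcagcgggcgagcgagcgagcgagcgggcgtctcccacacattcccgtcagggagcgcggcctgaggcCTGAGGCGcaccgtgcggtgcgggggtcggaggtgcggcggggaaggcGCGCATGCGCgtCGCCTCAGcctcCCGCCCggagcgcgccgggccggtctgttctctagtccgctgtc

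Within Hfm1 a PRDM9-independent peak at chr5:106921073 lay in a coding exon, 5.25 kb into the gene. It had 40 and 42 fragments by ChIP and 3 by input, an enrichment of 12.7, and no start of another gene lay near it. Near the far end of the gene a PRDM9-dependent peak at chr5:106840915 had 9, 11 and 7 fragments, an enrichment of 1.21. Both replicates there were above the input, by a few fragments.

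Rnf212, Ccnb1ip1 and Cntd1 encode the regulators that pick crossover sites, and they held 3 of the 4 highest enrichments. They also had the lowest input values of the 9 genes, 10, 6 and 12 fragments, where enrichment is least precise. Their rank is therefore not read as a trait of these regulators. The peaks of Ccnb1ip1 and Cntd1 cannot be given to these genes alone, and by ChIP fragments Ccnb1ip1 and Rnf212 were the lowest. Rnf212, a SUMO-ligase-like RING protein (chr5:108729290-108774982, minus strand), had 590 and 665 ChIP fragments against 10 of input at chr5:108775220. The enrichment was 58.95, higher than in 69.3% of genes with a start peak, although the ChIP fragments were the second lowest of the 9. The broad peak of 2300 bp covered the starts of Rnf212-204, Rnf212-205 and Rnf212-206, and the starts of Rnf212-201, Rnf212-202 and Rnf212-203, all protein-coding, lay in no broad peak. An intronic PRDM9-independent peak at chr5:108763926 had 32, 28 and 2 fragments, an enrichment of 14.0. It lay 84 bp from the start of the antisense gene 1700047L14Rik, inside that gene. The Rnf212 promoter (chr5:108774978-108775277, minus strand) is shown for its NRF1 match 65 bases before the start, with a CCAAT box and a GC box upstream of it.
Rnf212 promoter: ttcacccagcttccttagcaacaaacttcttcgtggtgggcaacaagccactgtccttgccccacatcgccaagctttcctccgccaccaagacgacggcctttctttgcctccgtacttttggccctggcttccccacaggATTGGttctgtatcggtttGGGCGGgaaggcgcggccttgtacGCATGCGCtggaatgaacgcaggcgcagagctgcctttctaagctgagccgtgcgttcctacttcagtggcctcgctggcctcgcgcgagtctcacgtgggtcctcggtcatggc

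Ccnb1ip1, a ubiquitin ligase that acts in opposition to RNF212 (chr14:50789248-50807732, minus strand), has 2 annotated starts, both inside a broad peak. The outer one, of Ccnb1ip1-202, lies 109 bp from the nearest start of Parp2 on the opposite strand and 35 bp from that of Rpph1, the RNA subunit of ribonuclease P, on the same strand. There, at chr14:50808014, were 408 and 513 fragments in the replicates and 6 in the input, with the highest enrichment of the 9, 72.1, and a broad peak of 4800 bp. The centre was 282 bp upstream of the Ccnb1ip1 start and 68 bp from another Parp2 start, within Parp2, a poly(ADP-ribose) polymerase gene, so this peak cannot be given to Ccnb1ip1 alone. The inner start, of Ccnb1ip1-201, has no other gene within 1 kb. Its peak at chr14:50795462 had 347 and 380 fragments by ChIP and 9 by input, with an enrichment of 37.9 and a broad peak of 1900 bp. Taken by this peak, Ccnb1ip1 lay at about the median of all genes instead of above the upper quartile. RefSeq uses the inner start, and that promoter (chr14:50795679-50795978, minus strand) is shown because its NRF1 match, 16 bases after the start, is the lone motif in it.
Ccnb1ip1 promoter: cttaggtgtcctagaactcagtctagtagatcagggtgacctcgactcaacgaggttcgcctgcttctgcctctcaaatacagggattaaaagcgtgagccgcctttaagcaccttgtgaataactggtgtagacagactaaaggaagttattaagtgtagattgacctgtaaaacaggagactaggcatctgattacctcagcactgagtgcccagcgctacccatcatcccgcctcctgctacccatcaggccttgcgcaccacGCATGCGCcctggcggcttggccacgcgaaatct

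Between these starts a peak at chr14:50805092 had 40, 50 and 11 fragments and an enrichment of 3.72. It lay outside the PRDM9-independent regions, but in the broad peak of 4800 bp, which overlaps one, so its class depends on whether the centre or the broad peak is asked.

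Cntd1, a cyclin-like protein needed for crossover maturation in mouse (chr11:101279012-101296317, plus strand), had the widest broad peak of the 9, 6200 bp, wider than in 81.4% of genes with one. It reached 3011 bp upstream and 3188 bp downstream of the outermost start. At chr11:101278782 there were 738 and 872 ChIP fragments against 12 of input, with an enrichment of 63.0. Their mean was 805 ± 94.8 (SD, n = 2), the largest SD in fragments at the 9 highest start peaks. A start of Coa3, a gene for cytochrome c oxidase assembly on the opposite strand, lies 18 bp from that of Cntd1-201, and the Coa3 start nearest to the peak centre lies 161 bp from it, so this peak too cannot be given to the member alone. Cntd1 had no other narrow peak.

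Mlh3 encodes the endonuclease subunit of MutLγ, which resolves most crossovers, and it had the most narrow peaks of the 9 genes. At chr12:85270479, 112 bp inside the start of Mlh3-202 (gene at chr12:85234520-85270599, minus strand), were 847 and 910 fragments in the replicates and 22 in the input. The enrichment of 37.5 lay at the median of all genes, in a broad peak of 2800 bp. RefSeq lists 2 promoters with starts 8 bases apart, and the outer (chr12:85270550-85270849, minus strand) is shown for its NRF1 match 10 bases before the start, in a window with the highest CpG ratio of the members, 1.15.
Mlh3 promoter: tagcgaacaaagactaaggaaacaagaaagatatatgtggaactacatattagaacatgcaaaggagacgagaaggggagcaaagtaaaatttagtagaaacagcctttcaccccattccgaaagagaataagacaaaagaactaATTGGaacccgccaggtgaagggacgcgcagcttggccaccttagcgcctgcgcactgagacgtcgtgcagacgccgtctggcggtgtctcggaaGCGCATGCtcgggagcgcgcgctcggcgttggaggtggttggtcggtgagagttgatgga

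The other 4 peaks of Mlh3 were PRDM9-dependent and all lay in introns. The highest, at chr12:85255605, had 32 and 43 fragments by ChIP and 3 by input, an enrichment of 11.6. It lay inside the processed pseudogene Gm46369, 78 bp from its annotated start, and whether fragments from a near-identical copy elsewhere contribute there was not tested. At chr12:85257175, in the same broad peak of 2800 bp, were 29, 46 and 10 fragments, an enrichment of 3.40. At chr12:85247056, in a broad peak of 1400 bp, were 31, 35 and 7 fragments, an enrichment of 4.31. At each of these 3 sites both replicates were above the input, which the calling of a peak largely requires. The fourth, at chr12:85266020, 264 bp inside the start of the nonsense-mediated-decay transcript Mlh3-205, had 6, 11 and 4 fragments and an enrichment of 1.87.

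Exo1, a nuclease that resects DNA ends, acts in mismatch repair and assists MutLγ, had the narrowest broad peak of the 9, 1600 bp, and 10.4% of genes with one had a narrower. At chr1:175880938 (gene at chr1:175880581-175913489, plus strand) were 1049 and 1120 ChIP fragments against 18 of input, an enrichment of 56.6. The ChIP fragments were second to those of Hfm1, so a narrow domain went with a high centre. Of its 10 distinct starts 5 lay in this broad peak and 5, further in, lay in none. Exo1 had no other narrow peak.

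Pms2, the endonuclease subunit of MutLα in mismatch repair (chr5:143909964-143933968, plus strand), had the second lowest enrichment. At chr5:143909588 were 793 and 806 fragments in the replicates and 28 in the input, an enrichment of 26.75, in a broad peak of 3300 bp. Their mean was 799.5 ± 9.19 (SD, n = 2), the smallest SD in fragments at these peaks. Aimp2, a scaffold of the aminoacyl-tRNA synthetase complex on the opposite strand, has a start 117 bp from that of Pms2. The centre lay inside Aimp2, 376 bp upstream of the outermost Pms2 start and 196 bp from another start of Aimp2, so this peak cannot be given to Pms2 alone. At the other end, at chr5:143933500, a PRDM9-independent peak over an untranslated exon had 506 and 637 fragments by ChIP and 15 by input, with an enrichment of 35.7. It exceeded the peak at the Pms2 start by enrichment but not by fragments, and it lay 438 bp from the start of Rsph10b, a radial spoke gene, within that gene. Replicate 1 gave 44.3% of its ChIP fragments (41.4 to 47.2), below its overall 48.0%.

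**Figure D3:**
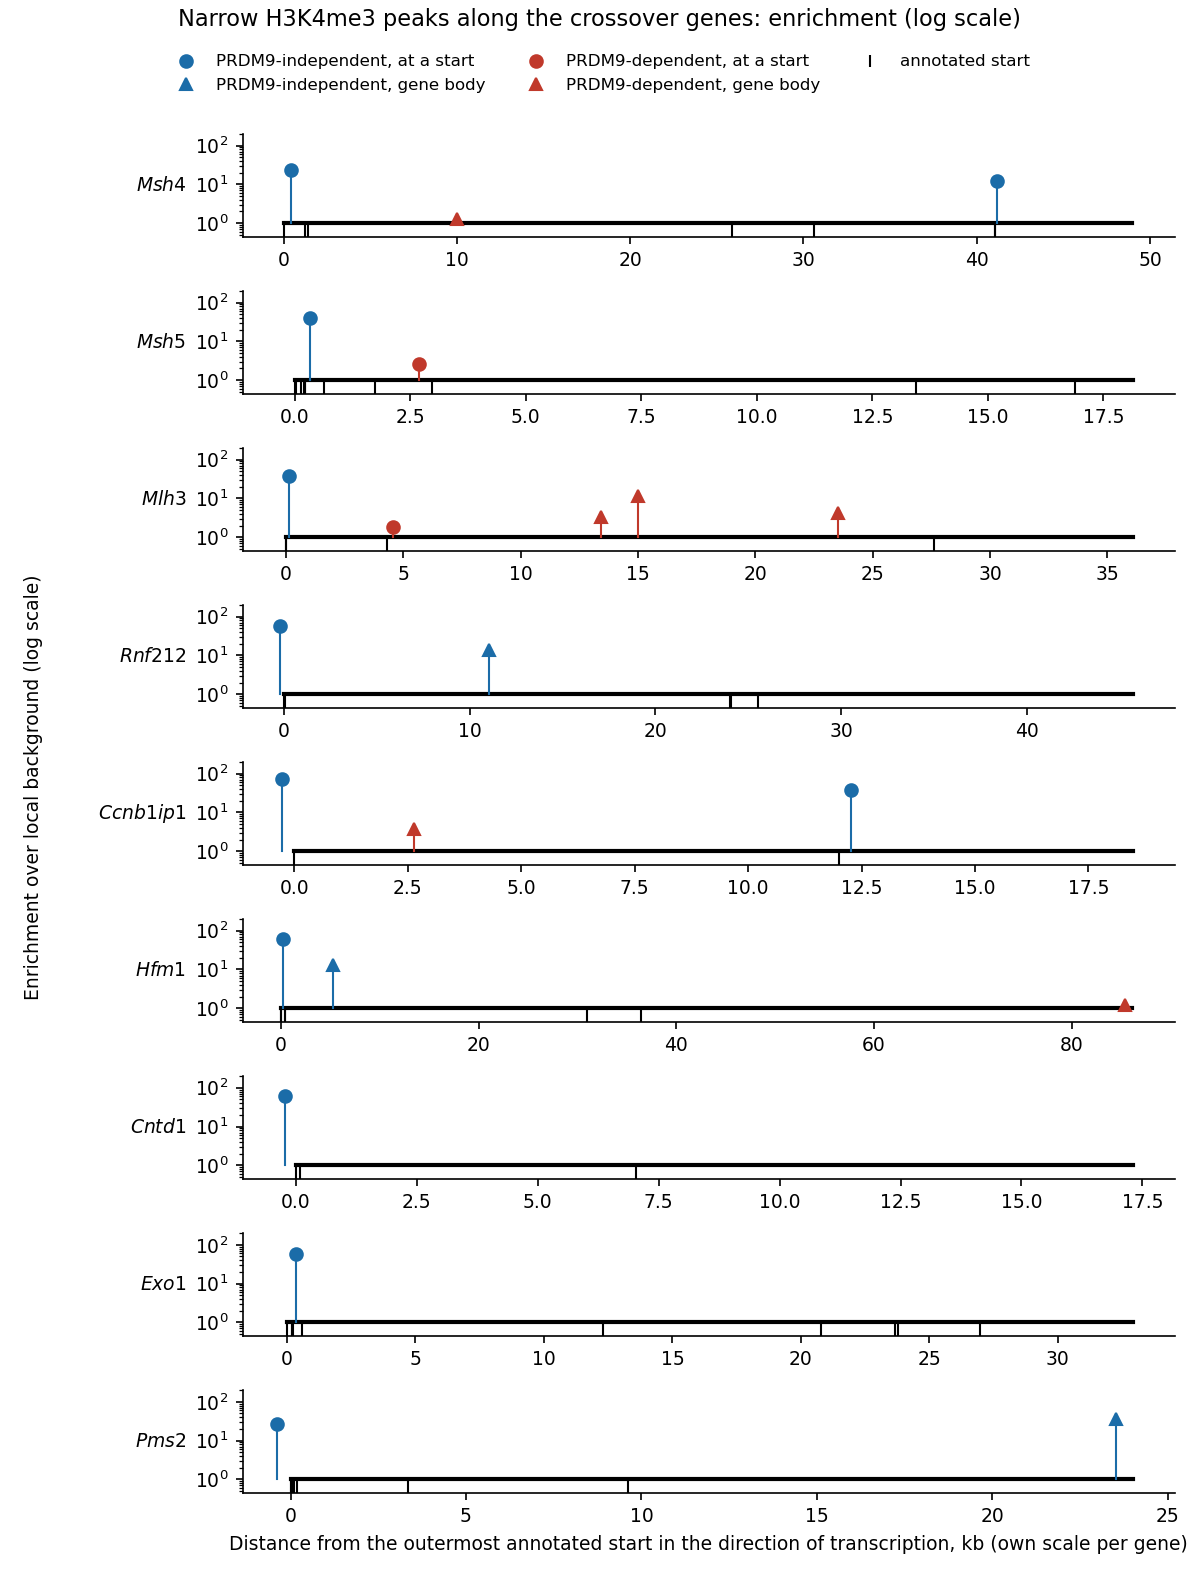
Narrow peaks along each gene, with the distance from the outermost annotated start in kb on the x axis, a scale of its own for each gene, and enrichment on a log y axis. Circles are start peaks and triangles gene-body peaks, blue is PRDM9-independent and red PRDM9-dependent, ticks mark annotated starts, and the tallest peak of every gene but Pms2 stands at its 5′ end.

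In all, the 9 genes held 22 narrow peaks, 13 at starts and 9 elsewhere in the gene body. Of those at starts 11 were PRDM9-independent, and of those in the body 6 were PRDM9-dependent. The same split over all start peaks and all body peaks was not counted, so it is not read as a trait of these genes. A PRDM9-dependent peak in the body was present in 4 of 9 genes, Msh4, Mlh3, Ccnb1ip1 and Hfm1, against 42.7% of protein-coding genes. The share of genes was thus near that of all genes. Per 100 kb of gene the 9 genes held 1.83 such peaks and all genes 2.61. The lower value rests on 6 peaks, its counting error was not computed and the difference was not tested. With p under 1e-10 the peaks of Mlh3 and Ccnb1ip1 remained, in 2 genes. All 8 PRDM9-dependent peaks were weak beside the start peaks, with 6 to 40 fragments by replicate 1, 5 to 50 by replicate 2 and 3 to 11 by input. Their median enrichment was 3.005 (1.21 to 11.6), close to the 2.79 of all PRDM9-dependent peaks. In 7 of 8 both replicates exceeded the input, which the calling of peaks favours, and 7 of 8 lay in an intron. The shares over all PRDM9-dependent peaks were not counted, so neither count is read as a trait of these genes. Outside the genes the nearest PRDM9-dependent peak lay between 2.39 kb from the gene, beyond the 3′ end of Pms2, and 29.1 kb, beyond the 5′ end of Rnf212. That near Pms2, at chr5:143936361, had 66 and 65 ChIP fragments against 13 of input, with an enrichment of 4.61, more fragments than any PRDM9-dependent peak inside the 9 genes. It lay in the broad peak of 5500 bp at the end of Pms2, which overlaps a PRDM9-independent region, so its class depends on the same choice as that of the Ccnb1ip1 peak.

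RefSeq promoter windows were at hand for 8 of the 9 genes, 9 windows with the overlapping pair of Mlh3, and they were set beside 21044 windows of protein-coding genes and the 15286 of those with a narrow peak within 1 kb of the start. The peak centre nearest to the RefSeq start lay 112 to 840 bases from it. The CpG observed to expected ratio was 0.83 in the median member window (0.44 to 1.15), against 0.57 over all windows and 0.72 over those with a peak. Their median GC content of 52.0% was below the 56.7% of all windows and the 60.7% of those with a peak. The letters were searched on both strands, and a window with several matches counts once. GCATGCGC (NRF1) stood in 4 of 8 genes, Ccnb1ip1, Hfm1, Mlh3 and Rnf212, against 3.54% of all windows and 4.81% of those with a peak. In 3 of these 4 it lay within 18 bases of the start, and in Rnf212 65 bases before it. CNCCTCAG (STRA8) stood in Hfm1, Msh5 and Pms2, against 8.60% of all windows and 9.51% of those with a peak. CCAAT stood in 5 genes, Cntd1, Mlh3, Msh5, Pms2 and Rnf212, against 38.5% and 37.8%, and GGGCGG (the GC box) in 5, Cntd1, Hfm1, Msh5, Pms2 and Rnf212, against 46.7% and 60.6%. No member window held AACTGCC (A-MYB), TGACGTCA (the cAMP response element) or TATAAA (the TATA box), which stood in 3.98%, 2.26% and 12.7% of all windows and in 3.86%, 2.87% and 7.05% of those with a peak. The letters describe the sequence, and binding was not measured.

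Beside the 9 genes, 3 lists of the same pathway were counted, and 16 of the 17 genes matched in the annotation had a start peak. The share of all protein-coding genes with a start peak was 77.4%, and the difference was not tested. Of the pro-crossover partners 4 of 5 had one, with a median enrichment of 25.5, from 18.0 for Prr19, which encodes a partner of CNTD1, to 67.7 for Cdk2, the kinase present at crossover sites. The exception was Shoc1, a nuclease-like partner of the crossover complex annotated as AI481877. No narrow peak lay within 1 kb of its annotated starts, but a PRDM9-independent one inside the gene at chr4:59118218, 7105 bp from the nearest start, had 456 and 465 fragments in the replicates and 10 in the input. Its enrichment of 43.2 and its broad peak of 2300 bp lay within the ranges of the 9 genes. Of the nucleases and dissolution factors 9 of 9 had a start peak, with a median of 56.0, from 38.5 for the nuclease gene Slx1b to 150 for Slx4, its scaffold. Of the mismatch repair genes 3 of 3 had one, with a median of 48.7, from 29.3 for Msh3 to 136 for Msh6, whose products recognise mispaired bases. The 9 crossover genes, at 23.5 to 72.1, fell within the span of these lists and reached the highest values of neither Slx4 nor Msh6.

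**Figure D4:**
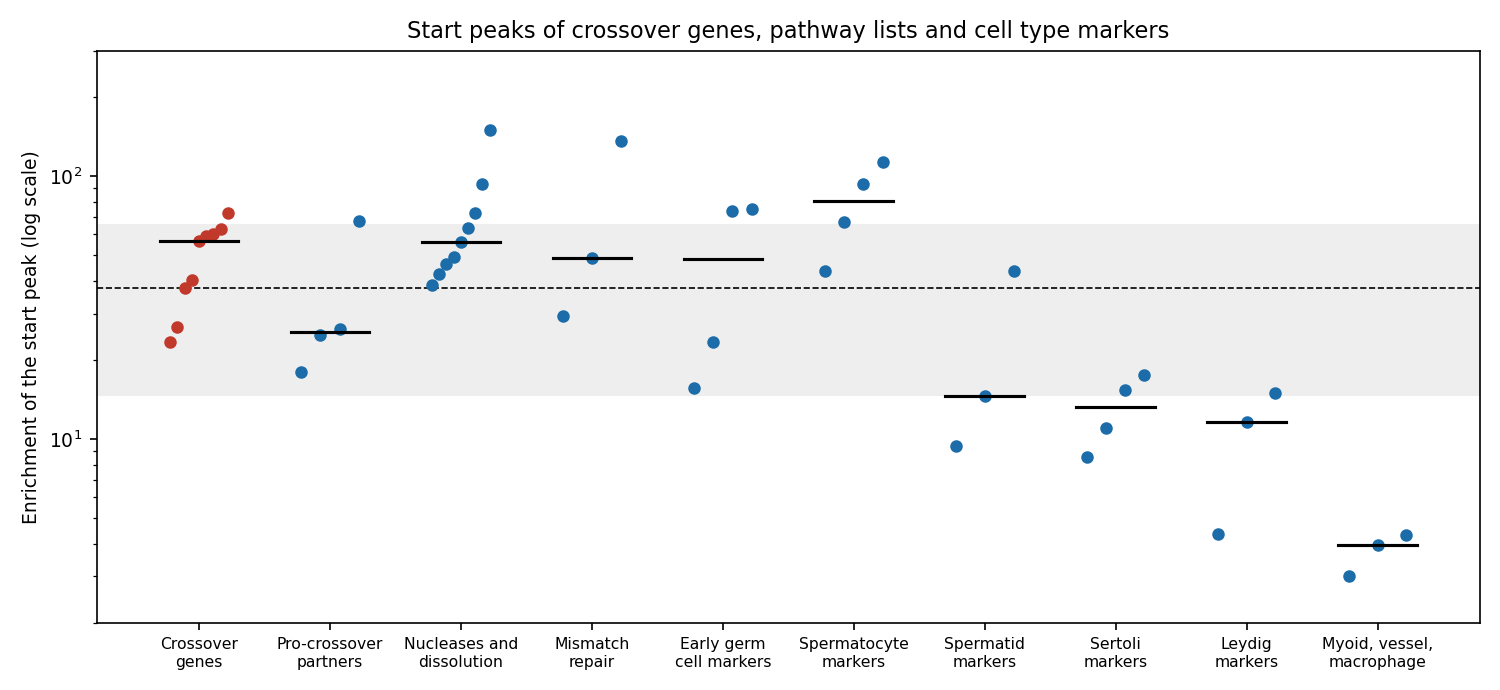
Enrichment of the highest start peak on a log axis for the 9 crossover genes (red), 3 pathway lists and 6 lists of cell type markers (blue), with a point per gene, a bar at each median, and the median and quartiles of all protein-coding genes as a dashed line and a grey band. The crossover genes run from 23.5 to 72.1, the germ cell markers from 9.43 to 113 and the somatic markers from 3.005 to 17.5.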

How the data were processed

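H3K4me3 ChIP-seq of whole testis gave 2 ChIP libraries and 1 input library. BWA, SAMtools and bedtools, named with the build mm10 in the submitters' processing notes, were used with Stampy, which the study's methods add. Improper pairs, likely PCR duplicates and pairs with no read of positive mapping quality were removed. The authors deposited, per library, the count of fragments that overlap the centre of each narrow peak, without normalization. The deposited enrichment is the authors' maximum likelihood ratio over local background less 1, from both replicates together, and it is imprecise at low input counts. The deposited p-value comes from a likelihood ratio test that the authors ran on both replicates, with a limit of 1e-06 for narrow peaks and 1e-05 for the bins of 100 bp behind broad peaks, and 13523 narrow peaks have it written as 0. Broad peaks and PRDM9-independent regions were deposited as positions. Peaks were called on the replicates jointly, so the replicates were compared by their counts at shared peaks.

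Narrow peak centres were joined to the 93196 distinct transcript starts of protein-coding genes in GENCODE vM21 on mm10. A narrow peak within 1 kb of a start was a start peak, the highest enrichment counted per gene, and other peaks between the ends of the gene were body peaks. A broad peak had to hold a start, and the widest counted. Overlap meant at least 1 bp. All 9 genes and all their peaks are named, with genes whose start lies within 1 kb on the opposite strand. Other genes beside a peak were named after their values were seen. Of the pathway lists, genes without a start peak and the highest and lowest by enrichment are named. Of 18 listed genes 17 matched, 1 of them by an older symbol, and Spo16 did not. Of these lists 1 further gene is not reported here. The genes, lists and motifs were chosen with earlier results of these data known. Intervals are exact binomial (Clopper-Pearson, 95%) and cover counting error only. With a single condition and 1 input no test between groups was made, and members are described beside all protein-coding genes. Promoter sequences are those of RefSeq on GRCm38.p6, and all 9 promoters equalled the genome at their coordinates. The joins were tested on simulated data with planted peaks. Computation was done with pandas 2.3.3, numpy 2.4.6 and scipy 1.17.1 under Python 3.11.15, and matplotlib 3.10.9 drew the plots.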

Additional observations from a re-analysis of the deposited data

How the results depend on the processing

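Distances of 500 bp and 2 kb, other sets of starts, p under 1e-10 and leaving out a replicate all left 9 of 9 genes, and 16 of the 17 matched pathway genes, with a start peak. Of 37 alternatives 34 stayed within the spread or within 1.5 times the count, and 3 did not. The spread is the SD between replicates, 3.73 for the median enrichment and 0.0955 for the median log2 ratio. For these medians it comes from the same values as leaving out a replicate, so those alternatives could hardly fall outside it. Taking the peak nearest to a start instead of the highest lowered the median enrichment from 56.6 to 40.4, since weaker inner peaks then stand for some genes. The median of 37.6 over all genes is for the highest peak, and none for the nearest peak was set beside 40.4. With p under 1e-10, 2 instead of 4 genes kept a PRDM9-dependent body peak. Scaling the libraries to the same summed coverage lowered the median log2 ratio of ChIP to input from 5.84 to 1.98. This scaling also removes the mean enrichment of ChIP over input at the peaks. Leaving out each replicate in turn gave a median enrichment, as coverage over input, of 53.7 to 59.0, a log2 ratio of 5.75 to 5.88 and 3 to 4 genes with a PRDM9-dependent body peak, where Msh4 is lost without replicate 1. Asking that the broad peak too lie outside the PRDM9-independent regions leaves 3 genes, without Ccnb1ip1. Alternatives for the replicate share, 18 against 19 of 22 peaks, and for the motifs, the last 100 bases of the window, were chosen after seeing the data. In those 100 bases 4 motifs were still found in at least 1 gene, as in the whole window, but each in fewer genes. The NRF1 letters stood in 3 genes, against 1.77% of all windows and 2.41% of those with a peak. CCAAT stood in 2 (13.6% and 13.9%), the STRA8 letters in 1 (3.47% and 3.77%) and the GC box in 1 (29.3% and 38.9%).

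No paired analysis was possible because there is a single condition and the lone input library has no replicate numbers to pair. Peaks with few input fragments have the least certain enrichment, and few input fragments limit every ratio.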
